A study of Mus musculus with 30 samples.

Results

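CD11b+ cells from the spleens of mice bearing C26-GM tumors were compared with CD11b+ cells from the spleens of healthy mice, both of the BALB/c strain. The 2 groups were taken by their array titles, with 3 arrays a side, so that 6 of the 30 arrays of the series carry the comparison. C26-GM is a transplantable mouse colon carcinoma line that releases the growth factor GM-CSF, and the healthy mice carried no tumor. CD11b is the integrin chain encoded by Itgam and is carried by granulocytes, monocytes, many macrophages and some NK and dendritic cells, so that its magnetic enrichment gives a mixture. Alongside, the same spleen cells were set against CD11b+ cells of the C26-GM tumor infiltrate (3 arrays) and of fresh BALB/c bone marrow (3 arrays). All 4 groups are BALB/c, and the labels name no transgene or deletion in the mice. The statistical fit also takes in the other groups of the series, with C57BL/6 mice, other tumors and BALB/c marrow cultured with cytokines. The sex and age of the mice, the number of mice behind an array, the tumor's size and the days since its transplantation are not given in the sources used here. Nothing in the labels says whether arrays of a group came from separate mice, so the p-values measure only the spread between these samples, which may be technical.

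GM-CSF acts on myeloid cells through a receptor made of its own alpha chain, encoded by Csf2ra, and a shared beta chain, encoded by Csf2rb, and signals through the kinase JAK2 and the factor STAT5. STAT5 switches on its own inhibitor, Cish, together with survival genes of the Pim and Bcl2 families. In mice, a tumor that releases GM-CSF is known for filling the spleen with immature granulocytes and monocytes, cells often called myeloid-derived suppressor cells. The spleen of an adult mouse is also a site of blood formation outside the marrow. In health the spleen holds red pulp macrophages that recycle the iron of aged red cells.

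Values are log2 expression from RMA, and where a gene had several probe sets the brightest on average stands for it. A change is a difference of log2 group means, so that a change of 1 is a 2-fold difference, and it is given with its standard error. Genes were tested with limma over all 30 arrays, with Benjamini-Hochberg adjustment over 18194 genes, and rose or fell when the adjusted p was under 0.05 and the change at least 2-fold. Every group had n = 3 arrays, and every adjusted p is from that fit.

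The selecting antigen and the general leukocyte genes were high on every array of both spleen groups. Itgam, the CD11b chain, read 11.34, 10.73 and 10.29 on the C26-GM spleen arrays, against 9.98, 10.01 and 9.81 on the healthy spleen arrays, and the C26-GM spleen values all lay above the healthy ones without passing the test (change 0.85, or 1.10 and called without the third C26-GM spleen and tumor arrays). Ptprc, which encodes the leukocyte antigen CD45, read 12.56, 12.43 and 12.58 in C26-GM spleen, against 12.98, 13.17 and 13.06 in healthy spleen, a change of -0.55 that was not called, though the mean of its probe sets gave -1.24, a call. The third C26-GM spleen array stood apart from its group, with correlations over genes of 0.976 and 0.983 to the other 2 arrays, against 0.991 between those 2 and 0.995 to 0.996 among the healthy arrays. Its actin probe sets differed by 0.66 between the 3′ and 5′ ends of the transcript, a measure tied to RNA integrity, against 0.17 and 0.41 on the other C26-GM spleen arrays and 0.18 to 0.25 on the healthy ones. On the third C26-GM tumor array that gap was 2.42. Many results that move without the third C26-GM spleen array are given with their value without it, but not every list count is. Without it, the GM-CSF targets that rose went from 8 to 9. Red pulp macrophage genes that fell went from 12 to 13, and chemokine receptors that rose from 1 to 0.

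Sex-linked transcripts separated the groups. Eif2s3y, on the Y chromosome, read 8.11, 8.48 and 8.50 on the C26-GM spleen arrays, against 2.34, 2.31 and 2.36 on the healthy spleen arrays, a change of 6.02 ± 0.14 (adjusted p = 1.4e-21). Xist, a long RNA made from the inactive X of female cells, read 5.54, 5.29 and 5.75 in C26-GM spleen, against 10.84, 11.02 and 10.91 in healthy spleen, a change of -5.40 ± 0.21 (adjusted p = 9.1e-16). The groups did not overlap in either gene, and the Y-linked Uty (2.19) and Kdm5d (1.44) rose as well. Sex and tumor bearing therefore cannot be told apart in this comparison. The same split separated C26-GM spleen from fresh marrow, by 5.89 in Eif2s3y and -5.25 in Xist, so sex and group cannot be told apart there either, whereas neither gene was called against the C26-GM tumor (-0.49 and -0.17). With the genes of chromosomes X and Y left out, 17568 genes were tested and 38.0% of the changed genes were higher in C26-GM spleen, against 37.7% with them.

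Of 18194 genes, 1118 (6.14%) changed, 422 (2.32%) higher and 696 (3.83%) lower in C26-GM spleen, and the median change of all genes was 0.09. The 3 values a side did not overlap in 1098 of the 1118 changed genes, against 39.5% of all genes tested. At least 16-fold changes numbered 12 rises and 9 falls. Against the tumor infiltrate of the same model 1120 genes (6.16%) differed, 612 (3.36%) higher and 508 (2.79%) lower in the spleen. Centring the arrays on housekeeping genes moved the median of all genes in that contrast to -0.26 and the split to 382 higher and 799 lower, that is from 54.6% to 32.3% higher, so directions between spleen and tumor are relative to this shift. Against fresh marrow 1861 genes (10.2%) differed, 958 (5.27%) higher and 903 (4.96%) lower in C26-GM spleen. The comparisons with healthy spleen, tumor and marrow share the 3 C26-GM spleen arrays. These shares over all genes stand beside every list count below, each in its own comparison. A short list with few calls can lie near them. The lists and their members were chosen with earlier results of these data known. A count above the share of all genes is therefore a description and not a test of enrichment.

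Of the 15 largest rises with groups apart, Rnase2a stood first. Rnase2a, an eosinophil-associated ribonuclease, read 11.21, 11.32 and 10.23 on the C26-GM spleen arrays, against 3.99, 4.08 and 3.88 on the healthy spleen arrays. The groups stood far apart, and the change was 6.94 ± 0.46, or 123-fold (adjusted p = 1.6e-11). Dmkn, a secreted protein best known from the epidermis, read 9.69, 10.14 and 9.13 in C26-GM spleen, against 3.20, 3.53 and 3.73 in healthy spleen, 71.8-fold higher (adjusted p = 3.6e-13). Car4, a membrane-anchored carbonic anhydrase, read 8.68, 9.62 and 9.35 in C26-GM spleen, against 4.25, 3.62 and 4.11 in healthy spleen, a change of 5.23 ± 0.31. The C26-GM values of all 3 genes lay above every healthy value. Further rises with groups apart were the endothelial lipase Lipg (5.61), the actin regulator Enah (4.58), the endocytic adaptor Dab2 (4.37), the transmembrane protein Plxdc2 (4.30) and Il1rl2, the receptor of the IL-36 cytokines (3.89).

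Of the 15 largest falls with groups apart, the first were Xist, given above, and the eosinophil granule gene Prg2 (-5.11). Cd83, a surface protein of activated dendritic cells and B cells, read 5.23, 5.86 and 5.86 on the C26-GM spleen arrays, against 9.71, 9.96 and 10.10 on the healthy spleen arrays, a change of -4.27 ± 0.33 (adjusted p = 4.0e-10). St8sia6, a sialyltransferase, read 5.16, 5.04 and 5.36 in C26-GM spleen, against 9.49, 9.72 and 9.78 in healthy spleen, a change of -4.48 ± 0.31. No value overlapped in either gene. Genes of surface receptors fell as well, among them the IgM receptor Fcmr (-4.28), the lysophospholipid receptor Gpr34 (-3.78) and the oxysterol receptor Gpr183 (-3.68), and so did the ubiquitin-like Ubd (-4.37). Fscn1, an actin-bundling protein of mature dendritic cells, fell by 3.85 on its brightest probe set, while its other 3 probe sets moved by -0.11 to -0.42.

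**Figure D1:**
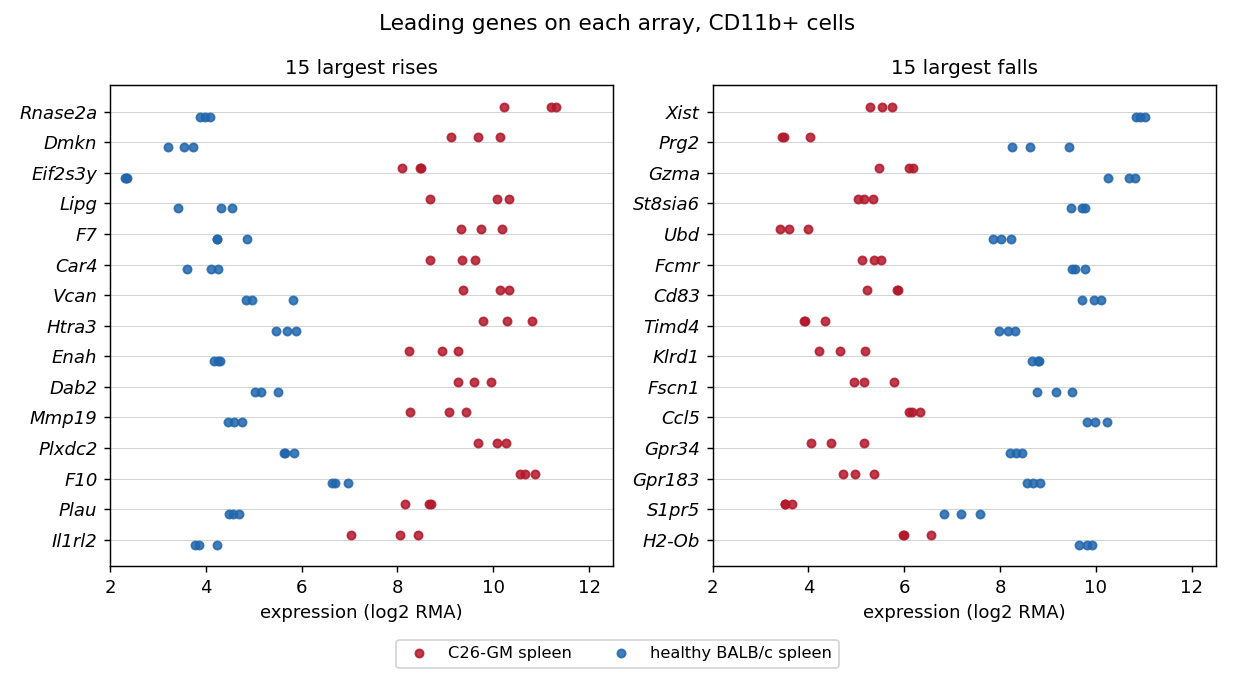
Expression (log2 RMA) of the 15 genes with the largest rises and the 15 with the largest falls, with 1 point for each array of C26-GM spleen (red) and healthy BALB/c spleen (blue). The points of the groups do not overlap in any of these genes, which the choice of genes required.

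Primary granules are the earliest granules of developing neutrophils. Of 13 of their genes, 7 rose in C26-GM spleen and 0 fell, with a median change of 1.49. Mpo, the myeloperoxidase made by promyelocytes, read 11.44, 10.18 and 10.22 on the C26-GM spleen arrays, against 6.93, 6.50 and 7.26 on the healthy spleen arrays. Every C26-GM value exceeded every healthy value, and the change was 3.72 ± 0.39 (adjusted p = 7.6e-08). Elane, neutrophil elastase, read 10.87, 9.65 and 8.95 in C26-GM spleen, against 7.32, 7.07 and 7.49 in healthy spleen, a change of 2.53 ± 0.39 (adjusted p = 3.1e-05). The granule proteases Prtn3 (2.80) and Ctsg (3.39) and the progenitor membrane protein Ms4a3 (2.68) rose likewise, whereas lysozyme Lyz2 (0.12) did not pass. In bulk samples such as these, fewer cells of a type and less RNA per cell cannot be told apart.

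The average level of these 13 genes in C26-GM spleen lay between those of marrow and of the tumor infiltrate. Mpo read 5.00, 5.52 and 4.99 in the tumor and 13.39, 13.40 and 13.36 in marrow, so that the spleen value was higher than the tumor's by 5.45 ± 0.39 and differed from marrow's by -2.77 ± 0.39. Of the 13 genes, 7 were higher and 0 lower in spleen than in tumor, or 7 and 1 with housekeeping centring, and 1 was higher and 8 lower in spleen than in marrow. Averaged over the 13 genes, the C26-GM spleen arrays stood at 11.06, 10.49 and 10.05, the tumor arrays at 8.69, 8.85 and 8.63, the marrow arrays at 11.93, 12 and 11.89, and the healthy arrays at 9.05, 8.85 and 9.13. The third C26-GM spleen array was the lowest of its group and still above every healthy array.

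Genes of later granules gave 8 rises and 0 falls among 18, with a median change of 1.06. Mmp8, the collagenase of neutrophils, read 12.76, 12.34 and 11.07 on the C26-GM spleen arrays, against 10.05, 9.53 and 9.75 on the healthy spleen arrays, a change of 2.28 ± 0.31 (adjusted p = 4.4e-06), and Chil3, the chitinase-like protein Ym1, read 13.26, 12.97 and 12.44 in C26-GM spleen, against 10.70, 10.62 and 10.80 in healthy spleen, a change of 2.18 ± 0.23. All 3 C26-GM arrays exceeded the healthy arrays in both. Camp, the cathelicidin peptide of secondary granules, was high in both spleens, at 13.78, 13.43 and 12.91 in C26-GM spleen, against 12.52, 12.45 and 12.63 in healthy spleen, and at 7.11, 7.19 and 6.96 in the tumor. Its spleen level exceeded that of the tumor by 6.29 ± 0.31 (adjusted p = 9.3e-14), whereas the spleens differed by 0.84, or by 1.07 (adjusted p = 0.0364) without the third C26-GM spleen array, a rise. Ltf, the iron-binding lactoferrin, showed the same order, with 13.60, 12.79 and 12.45 in C26-GM spleen, 7.73, 7.76 and 6.87 in the tumor and 11.74, 11.67 and 11.98 in healthy spleen. Without the third C26-GM spleen array, 8 primary and 10 later granule genes rose.

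**Figure D2:**
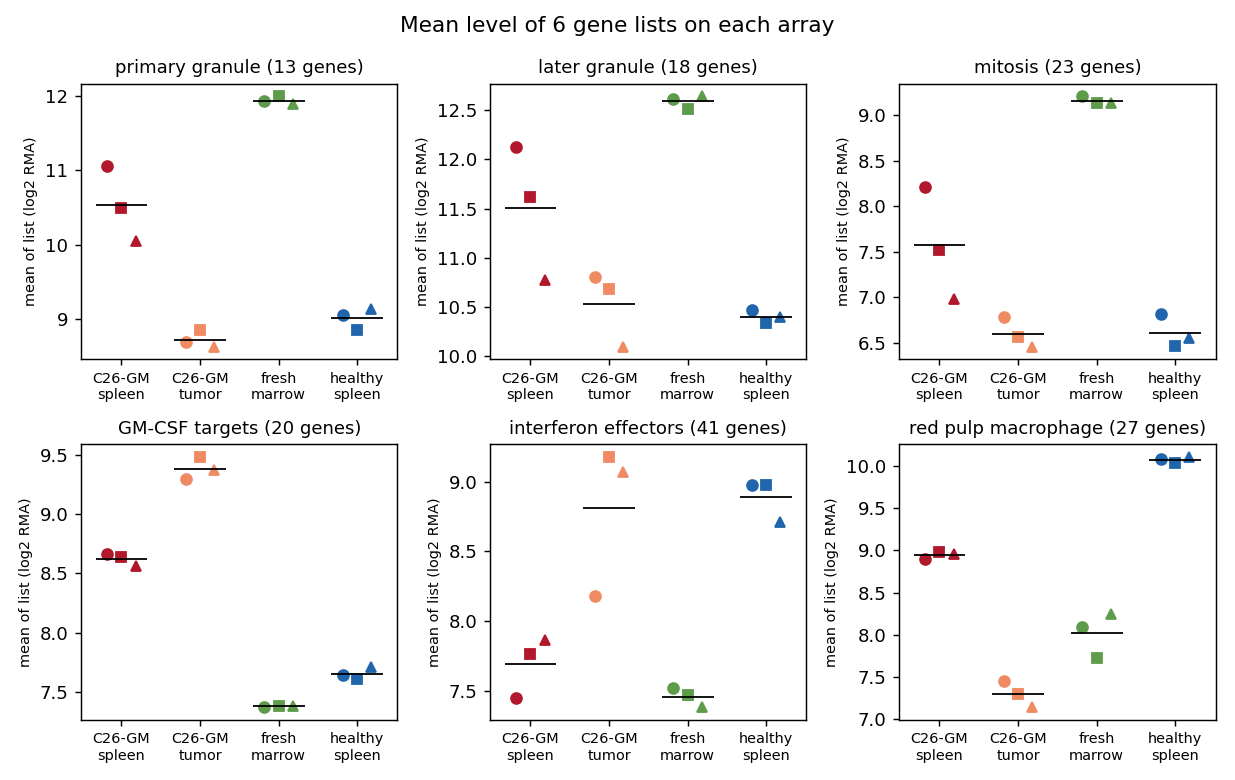
Mean log2 level of 6 gene lists on each array, in C26-GM spleen, C26-GM tumor, fresh marrow and healthy BALB/c spleen (3 arrays each, with a circle, a square and a triangle for replicates 1, 2 and 3, and a line at the group mean). Primary granule genes in C26-GM spleen lie between marrow and healthy spleen, GM-CSF targets are highest in the tumor, and interferon effectors and red pulp macrophage genes are highest in healthy spleen or, for the effectors, on some tumor arrays.

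Genes of mature neutrophils gave as many rises as falls. Of 22 receptors and markers, 2 rose and 2 fell, with a median of 0.02. The rises were Il1r2, the interleukin-1 decoy receptor (3.71), which also stands among the GM-CSF targets, and C5ar1, the receptor of complement C5a (1.06). The call of C5ar1 was lost without the first (0.75, adjusted p = 0.185) or second (1.04, adjusted p = 0.0753) C26-GM spleen array and without the second (1.04, adjusted p = 0.0853) or the third (0.998, adjusted p = 0.0939) healthy array. Csf3r, the G-CSF receptor that maintains neutrophil production, read 11.45, 10.71 and 10.66 on the C26-GM spleen arrays, against 12.42, 12.29 and 11.96 on the healthy spleen arrays and fell by 1.28 (adjusted p = 3.5e-04). Il1b, the inflammatory cytokine, read 10.84, 11.11 and 11.26 in C26-GM spleen, against 12.997, 12.94 and 12.83 in healthy spleen and fell by 1.85. The calgranulins S100a8 (0.18) and S100a9 (0.07), abundant cytosolic proteins of neutrophils and monocytes, were near the top of the scale in both groups and did not pass. Among 17 stem and progenitor genes, 1 rose and 3 fell. Prom1, the progenitor antigen CD133, rose (2.28), while the stem cell factor receptor Kit (-1.88), the cytokine receptor Flt3 (-1.75) and the transcription factor Sox4 (-3.55, or -0.57 as the mean of its probe sets, not a call) fell. Without the third C26-GM spleen array 3 of the 17 rose. Of the factors that direct granulocyte and macrophage fate, Cebpb, a factor of granulocyte production under stress, read 12.33, 12.16 and 12.05 on the C26-GM spleen arrays, against 10.57, 10.53 and 10.48 on the healthy spleen arrays, a change of 1.65 ± 0.17, and its groups did not overlap. Egr2, a factor of macrophage activation, rose (2.37), and Pparg, a lipid-sensing nuclear receptor, fell (-1.73).

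Cell division genes differed among the C26-GM spleen arrays. Of 23 genes of mitosis 12 rose and 0 fell, with a median change of 1.10, and of 28 genes of DNA replication and its licensing 2 rose and 0 fell, with a median of 0.54. Mki67, which coats the chromosomes of dividing cells, read 10.73, 10.32 and 9.78 on the C26-GM spleen arrays, against 9.19, 8.59 and 8.62 on the healthy spleen arrays, a change of 1.48 ± 0.25 (adjusted p = 8.3e-05). Cdk1, the kinase that starts mitosis, read 8.46, 8.20 and 7.37 in C26-GM spleen, against 7.05, 6.63 and 6.66 in healthy spleen, a change of 1.23 ± 0.20. Values did not overlap in either gene. Over the 23 mitosis genes the C26-GM spleen arrays averaged 8.21, 7.52 and 6.98, the tumor arrays 6.78, 6.56 and 6.46, the marrow arrays 9.21, 9.13 and 9.14, and the healthy arrays 6.82, 6.47 and 6.55. The first array was thus the highest and the third the lowest, and without the third array 21 of the 23 mitosis genes and 7 of the 28 replication genes rose. All 23 were lower than in marrow, and against the tumor 11 were higher, or 4 with housekeeping centring. Cdkn1a, an inhibitor of cyclin-dependent kinases, rose too, at 8.76, 8.69 and 9.19 in C26-GM spleen, against 6.71, 6.54 and 6.69 in healthy spleen (2.24 ± 0.17), while the G1 cyclin Ccnd1 fell (-2.79).

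Genes of the GM-CSF pathway are given by role. Of 20 feedback and survival targets, 8 rose and 1 fell, with a median change of 0.83. Of 5 kinase, phosphatase and STAT genes 0 rose and 0 fell, with 2 at an unadjusted and 1 at an adjusted p under 0.05 in limma. Promoters of 3 targets that rose are shown because each holds a match to the GAS motif, TTCNNNGAA, the pattern that STAT factors are known to bind. Each line runs from 250 bases before to 50 bases after the start of the gene on the plus strand of GRCm38.p6, from RefSeq, with the match in capitals: Cish at chr9:107296409-107296708, Ccl17 at chr8:94810203-94810502 and Il1r2 at chr1:40085843-40086142.
Cish: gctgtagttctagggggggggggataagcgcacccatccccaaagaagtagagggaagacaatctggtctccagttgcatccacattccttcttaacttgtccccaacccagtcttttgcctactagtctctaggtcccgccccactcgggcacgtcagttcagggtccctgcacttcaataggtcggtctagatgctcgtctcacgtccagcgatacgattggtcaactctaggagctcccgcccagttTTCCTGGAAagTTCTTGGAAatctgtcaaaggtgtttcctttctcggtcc
Ccl17: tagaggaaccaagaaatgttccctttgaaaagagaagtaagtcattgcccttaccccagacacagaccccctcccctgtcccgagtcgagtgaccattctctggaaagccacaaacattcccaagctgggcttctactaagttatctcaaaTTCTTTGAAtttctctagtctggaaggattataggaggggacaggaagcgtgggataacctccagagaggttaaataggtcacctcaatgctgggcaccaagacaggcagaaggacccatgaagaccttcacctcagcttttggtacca
Il1r2: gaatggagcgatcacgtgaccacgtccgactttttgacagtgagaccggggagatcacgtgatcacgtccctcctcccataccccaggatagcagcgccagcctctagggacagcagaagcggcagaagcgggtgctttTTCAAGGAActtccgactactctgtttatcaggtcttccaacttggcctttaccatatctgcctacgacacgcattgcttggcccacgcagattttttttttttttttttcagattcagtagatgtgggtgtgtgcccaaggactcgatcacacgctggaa
The Cish window holds 2 matches and the others 1 each, and none overlaps a match to the interferon motif given further on. On both strands, 2582 of 27025 mouse genes with a promoter searched held a match (9.55%), and 1239 of 14453 measured ones (8.57%). So did 4 of 17 GM-CSF targets with a promoter searched and 3 of the 6 that rose. A match is a description of the letters and not a mapped site.

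Cish, the STAT5-induced inhibitor of cytokine receptors, read 8.93, 9.24 and 9.17 on the C26-GM spleen arrays, against 6.04, 6.28 and 5.93 on the healthy spleen arrays. The groups lay well apart, and the change was 3.03 ± 0.18, or 8.17-fold (adjusted p = 3.3e-12). In the tumor it read 10.21, 10.67 and 10.74, higher than in the spleen (-1.43 ± 0.18, adjusted p = 2.6e-06). Il1r2, the decoy receptor of interleukin-1, read 12.92, 12.83 and 11.94 in C26-GM spleen, against 8.59, 8.97 and 9.01 in healthy spleen, a change of 3.71 ± 0.25 (adjusted p = 2.8e-11). Ccl17, a chemokine that draws CCR4+ T cells, read 7.36, 9.46 and 7.89 in C26-GM spleen, against 4.45, 4.58 and 5.14 in healthy spleen, a change of 3.51 ± 0.37 (adjusted p = 6.9e-08). Its second C26-GM array was the highest, and all 3 exceeded the healthy arrays. Osm, the cytokine oncostatin M, rose (2.73), the chemokine Ccl24, or eotaxin-2, rose (1.32), and the survival gene Bcl2 fell (-1.22, or -0.996 as the mean of its probe sets, just short of the limit). Socs2, another STAT5-induced inhibitor, did not pass in the spleen (0.96) on its brightest probe set, and rose without the third C26-GM spleen array (1.22, adjusted p = 0.0191). Another of its probe sets changed by 1.67, a call when all probe sets were fitted, while the rest were not called. With all arrays, Socs2 in the spleen differed from the tumor by -1.41 ± 0.32 (adjusted p = 0.0028).

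In all, 0 of the 20 targets were higher and 8 lower in the spleen than in the tumor, while 8 were higher and 2 lower than in marrow. The 20 targets averaged 8.66, 8.64 and 8.56 on the C26-GM spleen arrays, 9.29, 9.48 and 9.37 on the tumor arrays, 7.37, 7.38 and 7.38 on the marrow arrays and 7.64, 7.61 and 7.71 on the healthy arrays. These 4 groups did not overlap. In marrow cultured for 4 days with GM-CSF and IL-6, Cish averaged 10.71 ± 0.14 and Il1r2 11.36 ± 0.23 (SD, n = 3), levels given for orientation and not tested here.

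Of the receptor genes themselves, Csf2rb2, the mouse beta chain of the IL-3 receptor, read 9.06, 9.34 and 9.40 on the C26-GM spleen arrays, against 7.72, 7.59 and 7.42 on the healthy spleen arrays, a change of 1.69 ± 0.18 (adjusted p = 6.9e-08). Its neighbour on chromosome 15 and near-identical paralog Csf2rb, the common beta chain, read 11.19, 11.17 and 11.15 in C26-GM spleen, against 10.57, 10.41 and 10.46 in healthy spleen, a change of 0.69 ± 0.12 that stayed under the 2-fold limit. Another probe set of Csf2rb changed by 1.11, a call when all probe sets were fitted. Neither gene's groups overlapped on the brightest probe sets, and probes may be shared by such close copies, so the split between the pair is uncertain. Csf2ra (-0.07) and Il3ra (0.05), the alpha chains for GM-CSF and IL-3, did not pass, and the IL-5 alpha chain Il5ra fell (-1.22). The Ccl17 rise was not shared by the chemokine genes beside it on chromosome 8, Ccl22 (0.06) and Cx3cl1 (0.24).

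Clotting factor genes F7 and F10 both rose. F7, the factor that starts the extrinsic pathway with tissue factor, read 9.33, 9.75 and 10.19 on the C26-GM spleen arrays, against 4.24, 4.87 and 4.23 on the healthy spleen arrays. It changed by 5.31 ± 0.24, or 39.8-fold (adjusted p = 1.9e-14), and its healthy values lay near those of marrow, 4.65, 4.65 and 4.51. F10, which F7 activates, read 10.55, 10.67 and 10.86 in C26-GM spleen, against 6.96, 6.63 and 6.70 in healthy spleen, a change of 3.93 ± 0.22 (adjusted p = 4.6e-13). No value overlapped in either. The pair are neighbours on chromosome 8, and of the other 7 genes around them in RefSeq order Atp11a, a phospholipid flippase, rose (2.08) while Mcf2l (0.64, adjusted p = 0.0503), Proz (0.16), Pcid2 (0.12), Cul4a (0.09), Tubgcp3 (-0.04) and Spaca7 (0.22) did not pass. Tissue factor, F3, stayed low at 3.34, 3.55 and 2.89 in C26-GM spleen and 2.95, 2.94 and 2.67 in healthy spleen. In the tumor, F7 read 10.70, 10.51 and 10.21 and F10 10.74, 10.64 and 10.30, and neither differed from the spleen by the test.

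**Figure D3:**
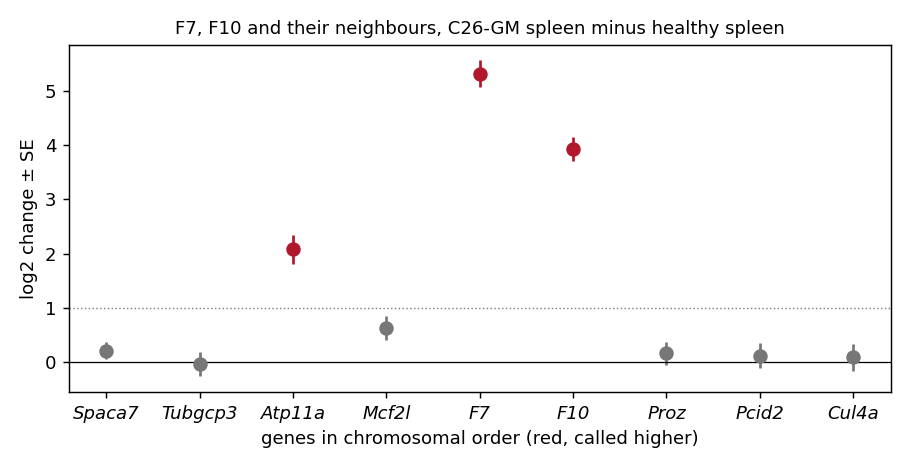
Change in log2 expression (C26-GM spleen minus healthy spleen, with standard error, n = 3 arrays a group) of F7, F10 and their protein-coding neighbours in chromosomal order. F7 at 5.31, F10 at 3.93 and Atp11a at 2.08 were called higher (red), and the other 6 genes were not (grey).

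Of 14 clotting factor genes 3 rose, or 2 without the third C26-GM spleen array, and 0 fell. Of 4 fibrinolysis proteases 2 rose and 0 fell. Plau, the protease urokinase, read 8.15, 8.69 and 8.67 on the C26-GM spleen arrays, against 4.69, 4.57 and 4.48 on the healthy spleen arrays, a change of 3.93 ± 0.30 (adjusted p = 2.0e-10), and its receptor Plaur rose (1.49). Thbs1, the matrix protein thrombospondin 1, read 9.67, 8.70 and 8.52 in C26-GM spleen, against 6.14, 6.14 and 6.01 in healthy spleen, a change of 2.87 ± 0.39. All 3 genes had groups apart. F2r, the receptor through which thrombin activates cells, fell (-2.69). Genes that restrain clotting or urokinase fell too, namely the protein C receptor Procr (-1.58), thrombomodulin Thbd (-1.51), the tissue factor inhibitor Tfpi (-1.20) and the urokinase inhibitor Serpinb2 (-2.99). The call of Tfpi was lost without the first healthy array (-0.82). Of 13 receptors and inhibitors, 2 rose and 5 fell.

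Platelet genes gave 5 rises and 0 falls among 14 markers, or 2 rises without the third C26-GM spleen array. Ppbp, a platelet chemokine, read 7.59, 8.77 and 9.85 on the C26-GM spleen arrays, against 6.28, 5.50 and 5.83 on the healthy spleen arrays, with its highest value on the third array, and Pf4 read 8.24, 9.17 and 10.12 in C26-GM spleen, against 7.51, 7.64 and 7.26 in healthy spleen. The platelet surface glycoproteins Gp9 (0.98), Gp5 (0.63) and Gp6 (0.50) did not pass. Their part in the clotting results was not tested.

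Of 36 matrix and protease genes, 8 rose and 2 fell. Vcan, the proteoglycan versican of monocytes and matrix, read 9.36, 10.13 and 10.34 on the C26-GM spleen arrays, against 5.82, 4.95 and 4.83 on the healthy spleen arrays, a change of 4.74 ± 0.40 (adjusted p = 2.0e-09). Htra3, a secreted serine protease, read 9.78, 10.30 and 10.82 in C26-GM spleen, against 5.88, 5.69 and 5.46 in healthy spleen, and the matrix protease Mmp19 read 9.44, 9.07 and 8.26 in C26-GM spleen, against 4.76, 4.46 and 4.58 in healthy spleen. Healthy values of all 3 genes lay under 6, and no C26-GM value fell under 8. Mmp12, the macrophage elastase, rose (1.99), and the collagenase Mmp8 is described above. Collagen genes Col1a1 (0.31) and Col3a1 (0.66), marks of fibroblasts, did not pass. Of 13 fibroblast genes 0 were called in limma, with 2 at an unadjusted and 1 at an adjusted p under 0.05. Without the third C26-GM spleen array 2 of the 13 fell.

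Of 16 genes of classical monocytes, 4 rose and 2 fell, with a median of 0.25. The rises were Ms4a8a, Vcan, Mmp8 and Chil3. Of these, Vcan is also given above among matrix genes, and Mmp8 and Chil3 among later granule genes. Ms4a8a, a membrane protein of monocytes and macrophages, read 10.76, 10.72 and 10.13 on the C26-GM spleen arrays, against 7.57, 7.57 and 7.27 on the healthy spleen arrays, a change of 3.07 ± 0.33, and its groups lay apart. Ccr2, the receptor that brings classical monocytes out of marrow, read 11.16, 11.70 and 11.56 in C26-GM spleen, against 11.49, 11.38 and 10.97 in healthy spleen, with overlapping groups (0.19). Of 16 genes of patrolling monocytes, 1 rose and 7 fell, with a median of -0.74. Cx3cr1, the fractalkine receptor of patrolling monocytes, read 6.29, 6.31 and 6.96 in C26-GM spleen, against 9.79, 9.55 and 9.55 in healthy spleen and fell by 3.11 (adjusted p = 1.4e-10). The lipid chaperone Fabp4 (-3.08) and the muscle-type enolase Eno3 (-3.42), used as subset markers, fell as well. Adgre4, an adhesion receptor of myeloid cells, fell by 1.89 and was higher than in the tumor, where it read 4.41, 4.60 and 4.60, by 5.12 (adjusted p = 2.9e-12).

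Of 27 red pulp macrophage genes, 0 rose and 12 fell in C26-GM spleen, with a median change of -0.97. Hpgd, which breaks down prostaglandins, read 6.94, 7.37 and 7.17 on the C26-GM spleen arrays, against 10.64, 10.67 and 10.78 on the healthy spleen arrays and fell by 3.54 (adjusted p = 7.3e-09). Timd4, a receptor for dying cells, read 3.93, 3.91 and 4.35 in C26-GM spleen, against 8.31, 8.17 and 7.97 in healthy spleen and fell by 4.08. Spic, the factor that directs red pulp macrophages, read 9.17, 9.78 and 9.34 in C26-GM spleen, against 11.23, 10.99 and 11.19 in healthy spleen and fell by 1.71. Groups did not overlap in these genes, though with probe sets of the _s_at, _x_at and _a_at kinds left out the change of Hpgd was -0.94 and no longer 2-fold. Vcam1 (-0.74) and Cd5l (-0.84), abundant in resident macrophages, did not pass against healthy spleen, although Vcam1 fell by 1.15 as the mean of its probe sets, and they were higher than in the tumor by 6.57 and 5.47. Of the 27 genes, 16 were higher and 0 lower in spleen than in tumor, while 11, Timd4 (0.19, adjusted p = 0.78) among them, did not differ by the test, and 14 were higher and 2 lower than in marrow. Over the list the arrays averaged 8.9, 8.98 and 8.96 in C26-GM spleen, 7.45, 7.3 and 7.14 in the tumor, 8.09, 7.73 and 8.25 in marrow and 10.08, 10.04 and 10.11 in healthy spleen. Iron genes gave 0 rises and 5 falls among 19, including the iron exporter Slc40a1 (-1.13) and the heme-degrading Hmox1 (-1.53).

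Of 11 genes of marginal zone and metallophilic macrophages, 4 rose and 1 fell. Lectins of the CD209 family, which bind sugars on microbes, did not move together. Cd209e read 6.59, 7.67 and 6.12 on the C26-GM spleen arrays, against 3.31, 3.43 and 4.04 on the healthy spleen arrays, a change of 3.20 ± 0.32 (adjusted p = 4.0e-08), and Cd209d read 7.43, 7.83 and 6.72 in C26-GM spleen, against 5.70, 5.84 and 6.13 in healthy spleen, a change of 1.44 ± 0.24. Cd209a, a lectin of dendritic cells, read 8.85, 9.502 and 8.80 in C26-GM spleen, against 10.04, 10.18 and 10.61 in healthy spleen and fell by 1.23. The scavenger receptor Marco (-0.12) and the sialic acid receptor Siglec1 (-0.01), which define these macrophages, did not pass.

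Of 17 genes of type 2 and mature dendritic cells 1 rose and 9 fell, with a median of -1.04. Ccr7, the receptor that leads mature dendritic cells to lymph nodes, read 4.24, 4.59 and 3.45 on the C26-GM spleen arrays, against 7.57, 7.61 and 7.86 on the healthy spleen arrays and fell by 3.59 (adjusted p = 4.0e-08). The maturation factor Relb (-1.93) and the dendritic cell factor Zbtb46 (-1.67) fell, and the galactose lectin Mgl2 rose (2.54). Of 11 type 1 genes 2 rose and 1 fell, and of 15 plasmacytoid genes 0 rose and 4 fell, or 6 fell without the third C26-GM spleen array. Costimulation genes gave 0 rises and 5 falls among 15, with Cd86 at 7.97, 8.30 and 7.71 in C26-GM spleen, against 10.04, 9.87 and 10.24 in healthy spleen (-2.05) and Cd40 at 6.36, 6.40 and 7.17 in C26-GM spleen, against 8.13, 8.16 and 8.24 in healthy spleen (-1.53). The groups did not overlap in Cd86 or in Cd40.

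Among 13 genes of MHC class II presentation, 0 rose and 2 fell, and both were chains of H2-O, the molecule that restrains peptide loading in B cells and some dendritic cells. H2-Ob read 5.97, 6.56 and 6.00 on the C26-GM spleen arrays, against 9.64, 9.82 and 9.93 on the healthy spleen arrays, a change of -3.62 ± 0.30 (adjusted p = 1.6e-09), and H2-Oa read 6.71, 6.85 and 6.79 in C26-GM spleen, against 10.06, 9.94 and 10.21 in healthy spleen, a change of -3.29 ± 0.22. The class II chain H2-Ab1, by contrast, read 12.29, 12.30 and 12.55 in C26-GM spleen, against 12.49, 12.69 and 12.82 in healthy spleen, and its groups overlapped (-0.29). Its controlling factor Ciita (-0.42) did not pass on its brightest probe set either. Another Ciita probe set fell by 1.19, a call when all probe sets were fitted. All 13 were higher than in marrow. Of 14 MHC class I genes 0 were called in limma, with 8 at an unadjusted p under 0.05. An adjusted p under 0.05 was reached by 7 of them with changes under 2-fold. The median was -0.47, and 12 of the 14 changes were negative.

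Of 41 interferon effector genes, 23 fell and 1 rose, with a median change of -1.27, and without the third C26-GM spleen array 27 fell. Promoters of Ifit3 and Ifit1 are shown because both genes fell and both windows hold matches to the ISRE motif, GAAA followed after any 2 bases by GAAA again, the pattern bound by interferon-activated factors. Each runs from 250 bases before to 50 bases after the gene start on the plus strand of GRCm38.p6, from RefSeq, at chr19:34583279-34583578 and chr19:34640639-34640938, with the matches in capitals.
Ifit3: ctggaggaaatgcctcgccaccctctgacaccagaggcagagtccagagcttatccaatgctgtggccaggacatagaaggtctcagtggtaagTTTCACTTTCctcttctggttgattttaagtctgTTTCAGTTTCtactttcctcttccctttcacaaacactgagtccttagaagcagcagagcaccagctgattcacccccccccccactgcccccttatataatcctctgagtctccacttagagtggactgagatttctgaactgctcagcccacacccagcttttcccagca
Ifit1: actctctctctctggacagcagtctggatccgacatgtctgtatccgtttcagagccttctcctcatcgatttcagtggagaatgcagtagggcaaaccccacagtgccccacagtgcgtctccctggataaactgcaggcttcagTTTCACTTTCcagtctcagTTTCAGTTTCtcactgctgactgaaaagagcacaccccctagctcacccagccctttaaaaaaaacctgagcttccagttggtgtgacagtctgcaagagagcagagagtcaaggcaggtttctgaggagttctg
Each window holds 2 matches, read here as the reverse complement, with TTTC as the repeated unit, and neither window holds a match to TTCNNNGAA. Read on both strands, the motif was found in 1079 of 27025 genes with a promoter searched (3.99%) and 524 of 14453 measured ones (3.63%). Among effector genes with a promoter searched, the motif was in 18 of 32. By outcome, it was in 10 of the 20 that fell and in 8 of the 11 that did not change.

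Ifit3, an RNA-binding antiviral protein, read 5.94, 5.59 and 6.00 on the C26-GM spleen arrays, against 9.08, 8.97 and 8.52 on the healthy spleen arrays. Every C26-GM value lay under every healthy value, and the change was -3.01 ± 0.30 (adjusted p = 3.2e-08). Ifit1, of the same family, read 5.09, 6.08 and 5.90 in C26-GM spleen, against 7.91, 7.81 and 7.21 in healthy spleen and fell by 1.95. Usp18, which trims ISG15 from proteins, read 5.75, 6.30 and 6.51 in C26-GM spleen, against 8.78, 8.96 and 8.63 in healthy spleen and fell by 2.61. Cxcl10, a chemokine for CXCR3+ lymphocytes, read 5.57, 5.68 and 5.16 in C26-GM spleen, against 8.04, 7.71 and 7.61 in healthy spleen and fell by 2.32 (adjusted p = 2.5e-04). The healthy and C26-GM values of these genes did not overlap. Ifitm1, an antiviral membrane protein, was the 1 effector that rose, at 12.80, 12.85 and 12.75 in C26-GM spleen, against 11.18, 10.99 and 10.93 in healthy spleen (1.77 ± 0.16).

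Against the tumor infiltrate of the same model, 20 of the 41 were lower and 0 higher in the spleen than in the tumor, or 24 and 0 with housekeeping centring. Ifit1 read 8.28, 9.49 and 10.13 in the tumor, where the first array was the lowest, and the spleen minus tumor difference was -3.61 ± 0.34 (adjusted p = 1.2e-08). Cxcl9, by contrast, fell against healthy spleen (-2.39) and did not differ from the tumor by the test (-0.05). Over the 41 genes the arrays averaged 7.45, 7.76 and 7.86 in C26-GM spleen, 8.18, 9.18 and 9.07 in the tumor, 7.52, 7.47 and 7.38 in marrow and 8.98, 8.98 and 8.71 in healthy spleen. The ranges of C26-GM spleen and marrow overlapped, and both lay under every healthy array.

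Of 11 sensors upstream of the effectors 0 were called in limma, with 4 at an unadjusted and 3 at an adjusted p under 0.05. Of 5 interferon genes 0 were called, with 1 at both levels. Of 13 receptors and transcription factors 3 fell, namely Irf7, the factor that amplifies the response (-1.23), and the receptor chains Ifnar1 (-1.14) and Ifnar2 (-1.11). Stat2 (-0.65) and Irf9 (-0.70), which carry the signal, did not pass.

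**Figure D4:**
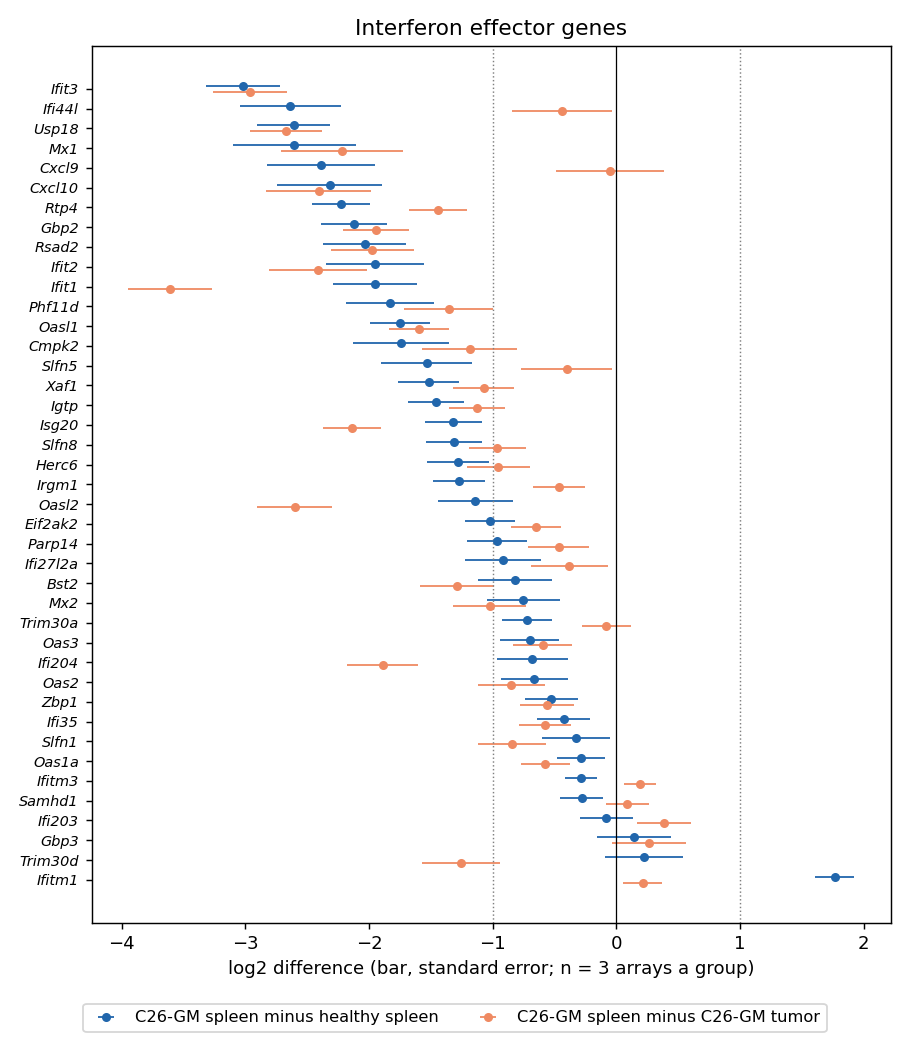
Log2 difference with standard error of 41 interferon effector genes, for C26-GM spleen minus healthy spleen (blue) and C26-GM spleen minus C26-GM tumor (orange), with dotted lines at 1 and -1. Against healthy spleen 38 of 41 differences are negative, the lowest that of Ifit3 at -3.01, and only Ifitm1 at 1.77 lies above 1.

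Among markers of lymphoid cells, the B cell list gave 0 rises and 13 falls among 15, with a median of -2.08, and array means of 5.75 to 5.93 in C26-GM spleen, against 7.92 to 8.05 in healthy spleen. Ms4a1, the B cell antigen CD20, read 5.78, 6.51 and 5.92 on the C26-GM spleen arrays, against 9.41, 9.55 and 9.68 on the healthy spleen arrays and fell by 3.48, while Ighm, the IgM heavy chain, read 10.87, 11.37 and 11.28 in C26-GM spleen, against 12.62, 12.52 and 12.78 in healthy spleen and fell by 1.47, or by 0.31 as the mean of its probe sets, which was no call, since another probe set moved the other way (0.97). The NK cell list gave 0 rises and 12 falls among 16, with a median of -1.93, and array means of 4.55 to 4.68 against 6.46 to 6.87. Gzma, a killing protease of NK cells, read 5.48, 6.19 and 6.11 in C26-GM spleen, against 10.70, 10.25 and 10.82 in healthy spleen, and the NK receptor chain Klrd1 fell by 4.07. Of 15 T cell genes 0 rose and 7 fell, although Cd3e read 6.33, 6.48 and 6.45 in C26-GM spleen, against 6.46, 6.38 and 6.35 in healthy spleen with overlapping groups. The part of these cells in the falls of Ccl5, H2-Ob, Cd83 and the interferon effectors was not tested.

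Eosinophil genes went both ways. Of 11 genes 1 rose and 8 fell, with a median of -1.24. Prg2, the major basic protein of eosinophil granules, read 4.03, 3.46 and 3.50 on the C26-GM spleen arrays, against 8.62, 8.24 and 9.45 on the healthy spleen arrays and fell by 5.11 (adjusted p = 1.7e-09). Ccr3, the eotaxin receptor, read 6.95, 6.53 and 5.87 in C26-GM spleen, against 9.87, 9.34 and 9.83 in healthy spleen and fell by 3.23. Rnase2a, named for eosinophils, rose instead, as given above, and its family member Rnase2b stayed low at 3.91, 4.02 and 3.90 in C26-GM spleen, against 3.50, 3.33 and 3.40 in healthy spleen. In marrow Prg2 read 11.39, 10.94 and 11.59 and Rnase2a 7.82, 7.36 and 7.75, so that the difference of C26-GM spleen from marrow was -7.65 for Prg2 and 3.28 for Rnase2a.

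Erythroid genes gave 0 rises and 6 falls among 12, or 3 falls without the third C26-GM spleen array, with a median of -0.99. Of 14 endothelial genes 0 rose and 2 fell. Of 17 epithelial genes, 1 rose, Cdh1, the adhesion protein E-cadherin, which some macrophages also make. It read 6.84, 7.36 and 7.71 in C26-GM spleen, against 4.10, 3.87 and 3.73 in healthy spleen, a change of 3.40 ± 0.47, while the epithelial antigen Epcam (0.51) and the keratins Krt8 (0.08) and Krt19 (0.20) did not pass.

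**Figure D5:**
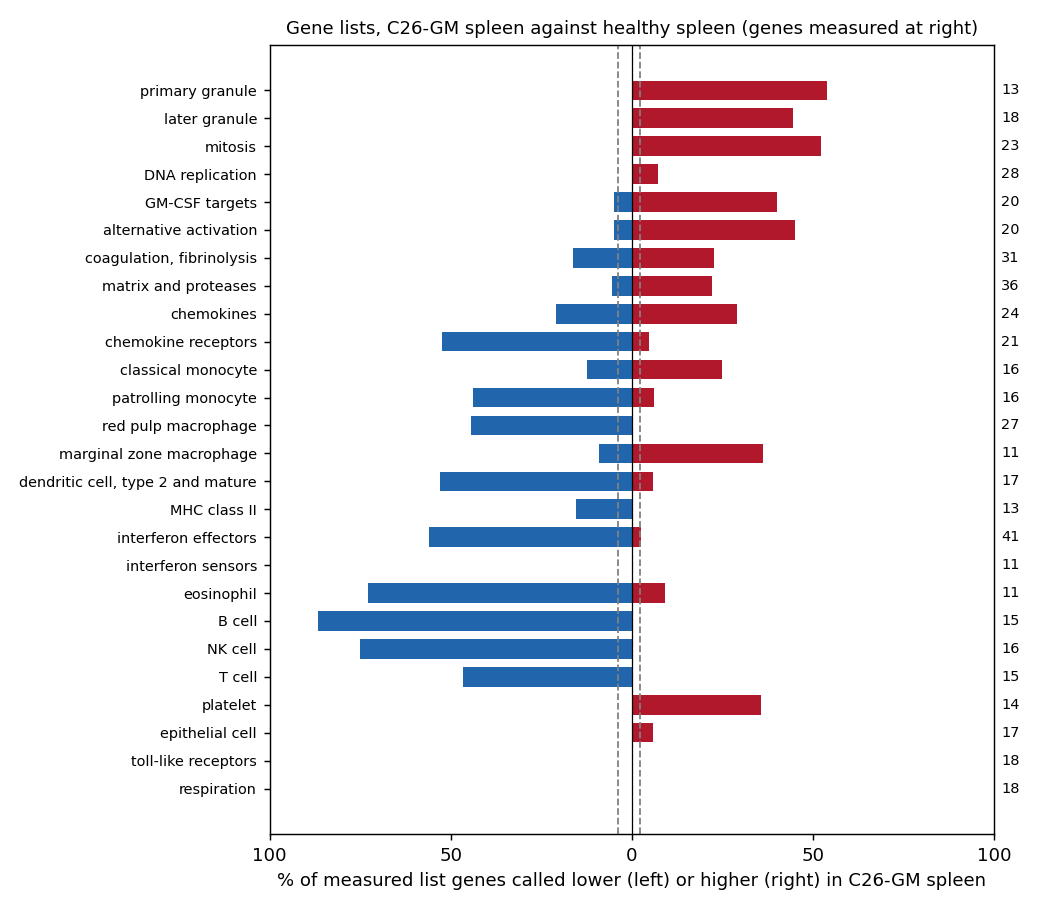
Share (%) of the measured genes of 26 lists called higher (red, to the right) or lower (blue, to the left) in C26-GM spleen against healthy spleen, with the number of genes measured at the right edge and dashed lines at the shares over all 18194 genes, 2.32% higher and 3.83% lower. Granule, mitosis and GM-CSF target lists extend to the right, and B cell, NK cell, eosinophil and interferon effector lists to the left. The lists were chosen with earlier results of these data known, so the dashed lines are for orientation only.

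Chemokine genes gave 7 rises and 5 falls among 24, and their receptors 1 rise and 11 falls among 21, with a receptor median of -1.05. Ccl8, a monocyte chemoattractant, rose (1.92), and Ccl5, a chemokine of T and NK cells, read 6.09, 6.32 and 6.16 on the C26-GM spleen arrays, against 9.99, 9.81 and 10.24 on the healthy spleen arrays and fell by 3.82. The neutrophil chemokine Cxcl3 separated spleen from tumor, at 2.68, 2.65 and 2.74 in C26-GM spleen, 11.96, 11.86 and 12.13 in the tumor and 2.29, 2.14 and 2.14 in healthy spleen. Against the tumor 0 chemokine genes were higher and 13 lower in the spleen, or 14 lower with housekeeping centring. S1pr5, which lets NK cells and patrolling monocytes leave tissue, fell by 3.64.

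Of 28 effector genes named for suppressor cells, 2 rose and 1 fell (7.14% and 3.57%), against 2.32% and 3.83% of all genes. Arg1, the arginine-consuming arginase, read 4.07, 4.46 and 3.88 on the C26-GM spleen arrays, against 3.90, 4.04 and 3.56 on the healthy spleen arrays, against 11.80, 10.35 and 9.69 in the tumor. The spleen groups overlapped (0.30 ± 0.35, adjusted p = 0.65), and the spleen minus tumor difference was -6.48 ± 0.35 (adjusted p = 3.7e-13). Nos2, the inducible nitric oxide synthase, was at 0.20 and did not pass, whereas Il4ra, the IL-4 receptor chain, rose (1.45). The alternative activation list, which shares Ccl17, Chil3, Cdh1, Mgl2 and Il4ra with lists above, gave 9 rises and 1 fall among 20, with a median of 0.78.

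Of 20 genes of lipid mediators, with a receptor among the enzymes, 3 rose and 5 fell. Ptgs2, the inducible prostaglandin synthase, read 5.45, 4.85 and 5.09 on the C26-GM spleen arrays, against 8.31, 7.55 and 8.37 on the healthy spleen arrays and fell by 2.94 (adjusted p = 1.0e-04), and the lipoxygenase Alox15 fell (-2.51), while the leukotriene receptor Cysltr1 rose (1.95). Of 20 glycolysis genes 5 rose, or 3 with housekeeping centring, and 0 fell, with Pfkp, the platelet-type phosphofructokinase, at 9.38, 9.89 and 10.01 in C26-GM spleen, against 7.92, 7.80 and 7.82 in healthy spleen (1.91 ± 0.23) and Pgam1, phosphoglycerate mutase, at 1.44. The enolase Eno3, given above among patrolling monocyte genes, was not on this list and fell (-3.42). Of 13 hypoxia targets 0 were called in limma, Vegfa (0.54) among them, and 6 had an unadjusted and 4 an adjusted p under 0.05. Fcgr2b, the inhibitory Fc receptor, rose (1.92, or 0.30 and not called with _s_at, _x_at and _a_at probe sets left out), as did the secreted peroxidase Gpx3 (2.68). The cytokine Il15, which sustains NK cells, fell (-2.78).

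Several lists gave no call in limma. None of 18 toll-like receptor and adaptor genes rose or fell, although 5 had an unadjusted and 2 an adjusted p under 0.05. The counts were 0 changed with 0 at an unadjusted p under 0.05 for 18 ribosome biogenesis genes. For 18 genes of mitochondrial respiration they were 0 changed with 3, and 1 had an adjusted p under 0.05. Of those 18 genes, 1 rose without the third C26-GM spleen array. A gene that missed the threshold is not shown to be equal between the spleens.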

How the data were processed

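Total RNA of CD11b+ cells was measured on Affymetrix mouse expression arrays. The deposited values are log2 expression from RMA, per the submitters' processing notes, which as used here name no version. They were used as deposited, with no depth to state, so that the number of arrays (3 a group) limits the precision. Of 45101 probe sets, 34958 carried 1 gene symbol, 932 several and 9211 none in the platform annotation, and those with several or none were left out. Each of 18194 genes was taken from its brightest probe set on average.

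All 30 arrays entered 1 linear model with a coefficient for each of 10 groups (limma 3.58.1, R 4.3.3, eBayes, 20 residual degrees of freedom before moderation), and 3 contrasts were drawn from it. A gene was called at an adjusted p under 0.05 with a change of at least 2-fold. The standard errors rest on the spread over all groups. The procedure was also run on simulated arrays that shared the same spread for each gene. Such arrays cannot show how it performs on arrays of unequal quality, as here. The genes named were the 15 largest rises and falls with values that do not overlap, predicted and unnamed transcripts passed over, and members of 52 gene lists, of which 1087 of 1209 entries were measured. Neighbouring genes of F7, Ccl17 and Csf2rb2 and list members for description were added. Atp11a, Mcf2l, Proz, Pcid2, Cul4a, Tubgcp3, Spaca7 and Cx3cl1 are outside that rule and were chosen as neighbours. C5ar1 and Tfpi, list members, were named after their values were seen. The members and lists were chosen with earlier results of these data known, and some genes stand in several lists. A list is described by its counts and median, beside those of all genes. Promoter sequences are RefSeq's, on GRCm38.p6. Alternatives were housekeeping centring, quantile normalisation, the compared groups alone, array weights, a filter on low genes, other probe set choices, another variance prior, other thresholds, a replicate block, X and Y genes left out and each array left out. Leaving out the third C26-GM spleen and tumor arrays together was added after seeing the data. Scanner files were not used here.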

Additional observations from a re-analysis of the deposited data

Results flagged for a closer look

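Of 157 genes named in the text, 59 changed differently against healthy spleen in the spleen and in the tumor infiltrate of C26-GM bearing mice. The healthy arrays cancel in that contrast, and each value is the log2 level in C26-GM spleen minus that in C26-GM tumor, called in limma at adjusted p under 0.05 and 2-fold. In 29 genes the spleen was higher and in 30 lower. Over all 18194 genes, 6.16% were called in that contrast, 3.36% higher and 2.79% lower in the spleen. The named genes include the largest changes against healthy spleen and members of chosen lists, so their count is not a sample of all genes. With housekeeping centring 54 of the 59 calls were kept, 5 were lost (Cx3cr1, Egr2, H2-Ab1, Mki67 and St8sia6), 0 turned and 11 other named genes gained one. Spleen and tumor differ in organ as well, and the cause of these differences was not tested.

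The granule, progenitor and cell division genes among those higher in the spleen were Camp (6.29), Ltf (5.50), Mpo (5.45), Ctsg (3.92), Elane (3.79), Prtn3 (3.17), Ms4a3 (2.52), Prom1 (2.21) and Mki67 (1.25). Of later granule genes named in the text, Mmp8 (-0.40) and Chil3 (0.03) were not called. Over the whole lists, 7 of 13 primary granule genes were higher and 0 lower, 5 of 18 later granule genes higher and 1 lower, and 0 of 22 mature neutrophil genes higher and 6 lower. With housekeeping centring 1, 1 and 9 genes of these lists were lower. Genes of resident macrophages, monocytes and dendritic cells that were higher were Vcam1 (6.57), Cd5l (5.47), Adgre4 (5.12), Hpgd (4.02), Spic (3.17), Marco (2.67), Slc40a1 (1.73), Ccr2 (1.29), Cx3cr1 (1.21) and Egr2 (1.25). To these came the lectins Cd209e (3.48), Cd209a (3.26) and Cd209d (2.30), and the class II genes H2-Ob (2.81), Ciita (1.52) and H2-Ab1 (1.06). The others were Ighm (5.25), Ms4a1 (2.01), Ccr3 (1.94) and St8sia6 (1.15).

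Among genes lower in the spleen, Cxcl3 stood first (-9.30), then Arg1 (-6.48), Fabp4 (-5.29), Ptgs2 (-4.91) and Procr (-4.03). Interferon genes were lower as well, with Ifit1 (-3.61), Ifit3 (-2.96), Usp18 (-2.67), Cxcl10 (-2.41) and Irf7 (-1.83). Genes that had risen in C26-GM spleen were still lower there than in the tumor for Thbs1 (-2.51), Car4 (-2.41), Cdh1 (-2.26), Cdkn1a (-2.24), Dab2 (-1.92), Ccl8 (-1.65), Osm (-1.64), Enah (-1.58), Pf4 (-1.51), Il1rl2 (-1.49), Cish (-1.43), Plaur (-1.43) and Dmkn (-1.26). The rest were Sox4 (-3.12), Il1b (-1.94), Il15 (-1.82), Mcf2l (-1.82), F3 (-1.60), Ccnd1 (-1.54) and Socs2 (-1.41).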

How the results depend on the processing

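Counts of changed genes stayed within 1.5 times under every alternative run, apart from those given here. With no minimum fold change, 2627 genes (1249 higher, 1378 lower) differed from healthy spleen, 2580 (1556 and 1024) from the tumor and 4260 (2202 and 2058) from marrow. Housekeeping centring gave 382 higher and 799 lower genes against the tumor, and the cause was not tested. Leaving out 1 array gave 1033 to 1232 changed genes against healthy spleen (365 to 555 higher, 652 to 694 lower), 1047 to 1247 against the tumor (540 to 783 and 455 to 581) and 1700 to 2144 against marrow (861 to 1057 and 740 to 1087). The replicate block gave 1119 (425 higher, 694 lower), 1141 (627 and 514) and 1863 (958 and 905), and changed no call of a named gene against healthy spleen. Same-numbered C26-GM and healthy spleen arrays correlated at -0.008, 0.028 and 0.021 in their deviations, and C26-GM spleen and tumor arrays at 0.367, 0.063 and 0.47. Spleen and tumor arrays of unlike number correlated at -0.449 to 0.302. Not every same-numbered pair passed 0.1, so they were taken to share only a number. Whether a spleen and a tumor array came from the same mouse is not given. In the tumor contrast the block kept all 1120 calls of the main fit. Against healthy spleen, 0 of the named genes measured under each alternative (136 to 157) reversed, and those that lost a call when 1 spleen array was left out were C5ar1 and Tfpi, as C5ar1 also did at an adjusted p under 0.01. Calls were lost for Bcl2, Ighm and Sox4 with the mean of all probe sets and for Fcgr2b, Fscn1, Hpgd and Tfpi without the _s_at, _x_at and _a_at probe sets. Calls were gained under at least 1 alternative by Gp9, Socs2, Ltf, Ptprc, Vcam1, Camp, Itgam, Csf2rb and Rnase2b. Cell cycle genes gave 30 rises without the third C26-GM spleen array, against 16 with it.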
